A study of Mus musculus with 96 samples.

Results

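The genes described are 9 of the 40202 genes counted: the TGF-beta ligands Tgfb1, Tgfb2 and Tgfb3, the receptors Tgfbr1 and Tgfbr2, the signal carrier Smad3 and its inhibitor Smad7, the plasminogen activator Plau and the matrix gene Tgfbi. They were taken by symbol, in a choice made with earlier results of these data known, and all 9 were found. Their RNA was counted in 96 libraries, each from a single cell of the mouse lung line C10, labelled as alveolar type II epithelial. The 48 control cells were labelled with no treatment, and the other 48 with RO-3306, an inhibitor of the mitotic kinase CDK1, at 10 nM for 36 h. The protocol text that gives this dose stands in the records of both groups, and whether nM is the intended unit could not be checked. All cells were cultured in RPMI with serum and glutamine, dispensed singly and turned into cDNA with SMART-seq. The nanoSPLITS method of the series splits each lysate between RNA and protein measurement. Protein was not analysed here.

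TGF-beta ligands are secreted in a latent form, held by a propeptide and by latent TGF-beta binding proteins in the matrix, until integrins, proteases or thrombospondin release them. The free ligand binds the kinase receptor encoded by Tgfbr2, which recruits and phosphorylates the one encoded by Tgfbr1. SMAD2 and SMAD3 are then phosphorylated, join SMAD4 and act on genes in the nucleus, among them Smad7, which feeds back to block the receptor. Plau encodes urokinase, which cleaves plasminogen to plasmin, a protease that dissolves fibrin and can also release latent TGF-beta. Tgfbi encodes a secreted adhesion protein named for its induction by TGF-beta. In lung, the pathway is known for its part in matrix deposition and fibrosis.

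A minimum of 50000 counts and 1000 genes left 29 control and 37 RO-3306 cells. Library totals ran from 5 to 6457215 counts in control and from 2320 to 5321880 in RO-3306, and kept cells had medians of 1753427 and 2234309 counts. The labels name no separate cultures, so each treatment was treated as 1 sample. No test was made, no difference has a replicate check, and the 95% intervals in parentheses cover counting error only. The sample titles hold letters A to D in both groups, and what they stand for is not given. These 4 lettered sets held 10, 8, 6 and 5 kept control cells and 10, 10, 11 and 6 kept RO-3306 cells, and they are not replicates. Levels are in CPM, the summed counts of a gene scaled to the total of its group. Ratios are log2 of RO-3306 over control after adding 1 CPM to each, so that ratios of low genes come out too small.

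The label of the line was set against marker genes. Of the alveolar type II markers, Sftpa1, Sftpc, Sftpd and Slc34a2 were at 0 in every kept cell, and the 7 markers together reached 9.61 CPM in control and 5.40 in RO-3306. The 6 epithelial markers summed to 1.78 and 0.978 CPM. The 8 mesenchymal markers, such as Vim and Col1a1, summed to 5641 CPM in control, with single cells between 1329 and 11354 CPM. In RO-3306 they summed to 2532 CPM, with single cells between 1263 and 13894 CPM. Endothelial markers summed to 0.619 and 0.149 CPM. The macrophage markers reached 29.1 and 45.4 CPM, nearly all from Cd14 at 26.4 and 45.3 CPM, with Marco at 0 in both groups. The mesenchymal list was thus lower in RO-3306 alongside several of the genes below, and its part in their differences was not tested.

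Promoter windows of RefSeq on GRCm38.p6 (250 bases before to 50 after an annotated start) were matched by symbol for 6 of the 9 genes. The windows of Tgfb1 and Tgfb2 are shown because these are the ligands with a window, and Tgfb1 was close in both groups while Tgfb2 was lower in RO-3306. They read 5′ to 3′ on the strand of the gene, from chr7:25686752-25687051 (plus strand) for Tgfb1 and chr1:186705940-186706239 (minus strand) for Tgfb2. Capitals mark the letters GGGCGG or its complement CCGCCC (GC box) in Tgfb1. In Tgfb2 the first capitals are CAGACA, which holds the short sequence that SMAD3 binds. The second are the E-box letters, written CACGTG on both strands. The last are TATAAA, the usual letters at which transcription machinery assembles close to a start.
Tgfb1: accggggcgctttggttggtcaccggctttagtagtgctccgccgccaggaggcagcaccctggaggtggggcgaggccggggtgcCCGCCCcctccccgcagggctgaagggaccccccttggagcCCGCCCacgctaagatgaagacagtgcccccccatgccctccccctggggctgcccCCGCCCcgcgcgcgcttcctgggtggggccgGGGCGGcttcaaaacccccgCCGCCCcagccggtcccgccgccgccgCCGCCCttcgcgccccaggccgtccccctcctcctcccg
Tgfb2: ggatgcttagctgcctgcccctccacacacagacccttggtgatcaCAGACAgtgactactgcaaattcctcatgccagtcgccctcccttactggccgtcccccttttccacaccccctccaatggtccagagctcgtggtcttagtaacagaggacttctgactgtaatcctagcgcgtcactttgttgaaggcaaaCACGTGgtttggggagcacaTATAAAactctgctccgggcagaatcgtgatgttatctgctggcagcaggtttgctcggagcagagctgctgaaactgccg
Also searched on both strands were TGACGTCA (the cAMP response element), TGACTCA (the AP-1 site) and GTCTAGAC (a palindrome bound by SMADs).

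The Tgfb1 window held 6 GC boxes and none of the other motifs, with a GC content of 77%. A GC box was found in 35.7% of all 32851 windows of this length. The Tgfb2 window had a GC content of 54.3% and no GC box. It held 1 E-box starting at -51 from the annotated start, a motif found in 7.15% of windows, and 1 TATAAA at -31, found in 13.6%. Its CAGACA at -204 is a motif found in 21.04% of windows. The cAMP response element, the AP-1 site and the SMAD palindrome, found in 1.79%, 5.20% and 0.213% of windows, were in neither window. A match describes the letters only, and binding was not measured.

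Of the 9 genes, 7 reached a mean level of 5 CPM over both groups, the minimum used for ratios, and Plau and Tgfbi did not. Of these 7, the ligands Tgfb2 and Tgfb3 were called lower in RO-3306, and no gene was called higher. A call needed a ratio of 2-fold or more, with its sign shared by the 4 lettered sets. Among all 9374 genes of at least 5 CPM, 6.43% were called lower and 7.23% higher. By fold alone, 5 of the 7 genes were lower (Tgfb2, Tgfb3, Tgfbr2, Smad3 and Smad7), against 24.2% of all genes, and 1 was higher (Tgfbr1), against 12.2%. The median log2 ratio of the 7 genes was -1.41, beside -0.22 over all genes. Tgfb3, Smad7 and Tgfbr1 passed the minimum through 1 group alone, so they had to differ and these counts and the median are description only. Scaling by TMM or DESeq2 factors raised the median of all genes by 0.21 or 0.23, so a smaller ratio has no settled sign.

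**Figure D1:**
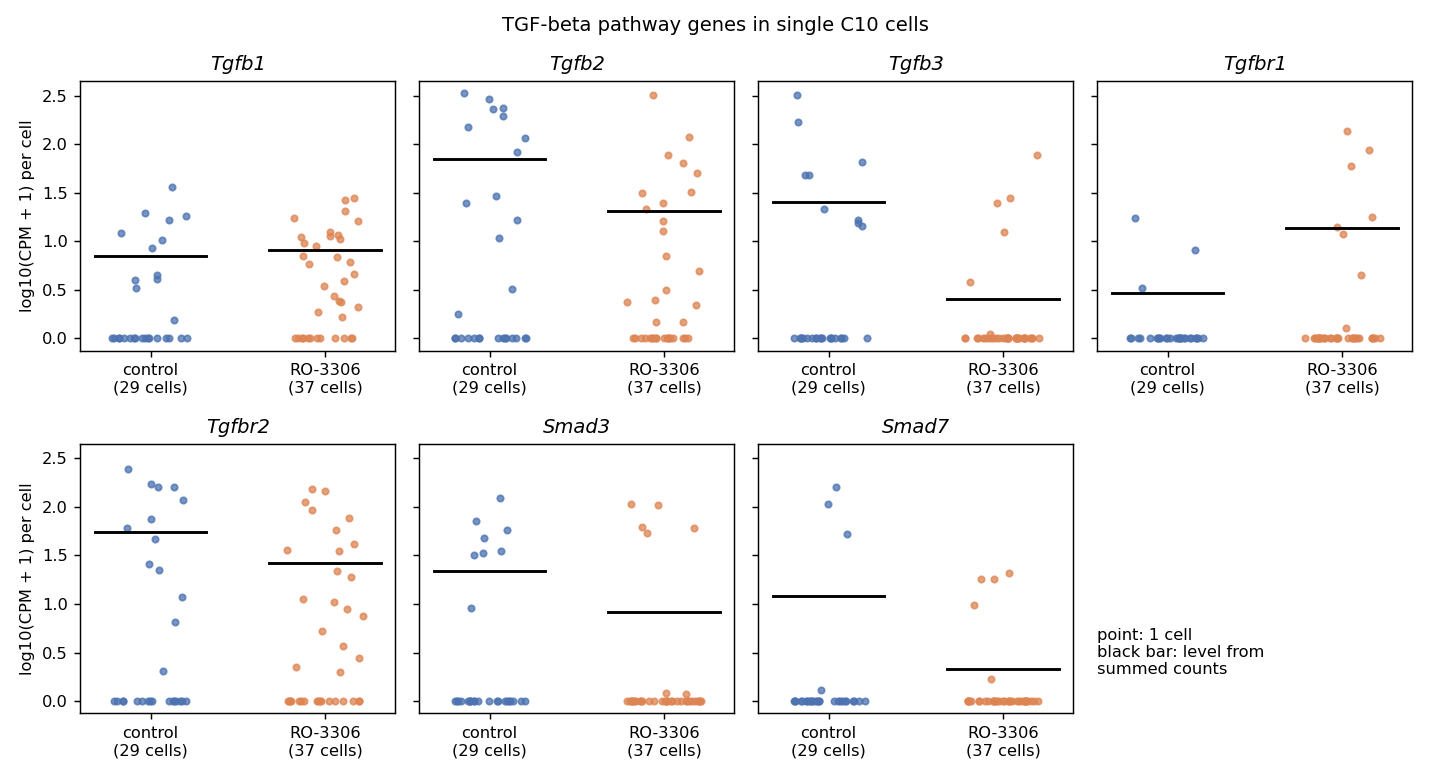
Each panel plots 1 of the 7 genes of at least 5 CPM, with 1 point per kept cell (29 control, 37 RO-3306), log10(CPM + 1) on the vertical axis and black bars at the level from summed counts. Most cells sit at 0 for most genes, and the highest Tgfb2 cells of the groups reach 333 and 316 CPM.

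Most cells had a count for only a few of these genes. A median of 2 of the 9 genes had a count per cell in both groups, with a range of 0 to 7, and 4 control and 2 RO-3306 cells had none. The shares of cells with a count ran from 10.3% to 48.3% in control and from 13.5% to 67.6% in RO-3306 over the 7 genes. Because RO-3306 cells were sequenced more deeply, shares are also given after thinning each cell to 639000 reads, which left 25 control and 34 RO-3306 cells. Before thinning, kept cells had a median of 5177 genes with a count in control and 6951 in RO-3306. Thinning makes the reads equal, and whether the shares follow a wider detection of genes in RO-3306 cells was not tested. A lower summed level can come from fewer cells with the RNA or from less RNA in each, and both are given below. Both groups held cells at 0 for each of the 7 genes, so their single-cell values overlapped.

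Tgfb2, the ligand known for its part in development and in mesenchymal cells, had the highest summed level of the ligands per kb of mRNA in both groups, which in RO-3306 rested on 1 cell. Its per-cell level ran from 0 to 333 CPM in control, with a median of 0. In RO-3306 it ran from 0 to 316 CPM, with a median of 0.482. Counts were found in about equal shares of cells, 14 of 29 in control (48.3%) and 19 of 37 in RO-3306 (51.4%), or 48% and 44.1% at equal depth. The cells with a count differed in level, with a median of 98.7 CPM in control and 15.1 in RO-3306. At equal depth these medians were 95.5 and 23.5 CPM. Levels above 50 CPM were found in 8 control and 4 RO-3306 cells.

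Summed over cells, Tgfb2 was at 69.8 CPM in control (67.8 to 71.8) and 19.3 CPM in RO-3306 (18.44 to 20.2), a log2 ratio of -1.80. It was 3.61-fold lower in RO-3306 (3.42 to 3.81). The lettered sets A to D gave log2 ratios of -4.50, -0.92, -0.76 and -3.75, so all 4 were lower but of very different size. Control sets were at 77.0, 61.0, 50.3 and 97.2 CPM, and RO-3306 sets at 2.45, 31.7, 29.2 and 6.31 CPM. How many of all genes have set levels as separate as these was not counted, so no meaning is given to the gap between them. Control set C rested on 1 cell with a count, of 6. In RO-3306, 1 cell, B11, held 37.4% of the Tgfb2 counts. With the highest cell of each group left out, the ratio was -2.22. Fractional counts, from reads placed at several sites, were present in 50% of the control cells with a count and in 10.5% of the RO-3306 cells. The gene lies on chromosome 1, 186354984 to 186441504 on GRCm39, minus strand.

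Tgfb3, a ligand known for its part in palate fusion and wound repair, had the lowest log2 ratio of the 7 genes. Per-cell levels ran from 0 to 321 CPM in control, where 9 of 29 cells had a count (31.03%). In RO-3306 they ran from 0 to 76.7 CPM, where 6 of 37 cells had a count (16.2%). At equal depth the shares were 36% and 11.8%, with intervals that overlap (17.97% to 57.5% and 3.30% to 27.5%). Among cells with a count, the median was 46.7 CPM in control and 17.7 in RO-3306. Both the share of cells and the level in those cells were thus lower.

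The summed Tgfb3 level was 24.5 CPM in control (23.3 to 25.7) and 1.53 CPM in RO-3306 (1.29 to 1.80), a log2 ratio of -3.34. It was 16.02-fold lower in RO-3306 (13.5 to 19.2). Sets A to D were at 40.5, 19.2, 8.86 and 6.33 CPM in control, against 6.58, 1.15, 0 and 0.00771 CPM in RO-3306. Their log2 ratios, after adding 1 CPM, lay between -3.30 and -2.45. The added 1 CPM holds this range narrow, since RO-3306 sets C and D were at or near 0. Control set D rested on 1 cell with a count, of 5. Weighting cells equally brought the ratio to -2.40. The span of Tgfb3 (chromosome 12, 86103517 to 86125815, minus strand) lies under that of LOC118567974 for 43.3% of its length, and by the default of the counting tool reads in a shared stretch were left out, so its level is a low estimate.

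Tgfb1, the ligand most widely expressed in adult tissue, showed no settled direction. Per-cell levels ran from 0 to 35.1 CPM in control and from 0 to 26.7 CPM in RO-3306. The summed level was 6.07 CPM in control (5.49 to 6.70) and 7.10 CPM in RO-3306 (6.58 to 7.67), a log2 ratio of 0.20. That ratio is smaller than the scaling shift. The sets disagreed, with 2.08 and 1.64 in A and C and -0.37 and -0.48 in B and D. More RO-3306 cells had a count, 25 of 37 (67.6%) against 12 of 29 (41.4%), or 55.9% and 40% at equal depth. The 2 intervals at equal depth overlap, at 37.9% to 72.8% and 21.1% to 61.3%. Among cells with a count the median was lower in RO-3306, at 5.99 CPM against 8.46 CPM. Tgfb1 spans chromosome 7 from 25386406 to 25404503, plus strand.

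Levels per kb of mRNA are only a rough scale for comparing genes. Reads were counted over whole gene spans, so reads from introns could enter levels that are divided by mRNA length alone. Spans of Tgfb1, Tgfb2 and Tgfb3 were 18098, 86521 and 22299 bases, beside mRNAs of 2573, 5116 and 3383 bases. On this scale, the Tgfb2 share of the summed level of the 3 ligands was 58.7% in control and 54.0% in RO-3306. In the summed counts, the lead of Tgfb2 in RO-3306 rested on cell B11. Without it, a check added after the values were seen, Tgfb2 made up 42.4% and Tgfb1 49.5%. In control, without the cell with the most Tgfb2 counts, B4, the Tgfb2 share was 55.9%. Over all cells the Tgfb3 share was 31.2% and 6.45%, a low estimate since reads over 43.3% of its span could be left out, and the Tgfb1 share was 10.2% and 39.5%. With cells weighted equally, the Tgfb1 share was 8.31% and 29.7% and the Tgfb3 share 35.5% and 15.3%. The makeup differed between lettered sets. In RO-3306, Tgfb2 made up 65.2% and 76.7% in sets B and C, but 9.81% and 22.6% in sets A and D, where Tgfb1 led. In the control sets it made up 55.1% to 77.2%. At least 1 ligand had a count in 72.4% of control cells (21 of 29) and 91.9% of RO-3306 cells (34 of 37), or 72% and 82.4% at equal depth. Tgfb2 and Tgfb3 were found together in 6 control and 2 RO-3306 cells.

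**Figure D2:**
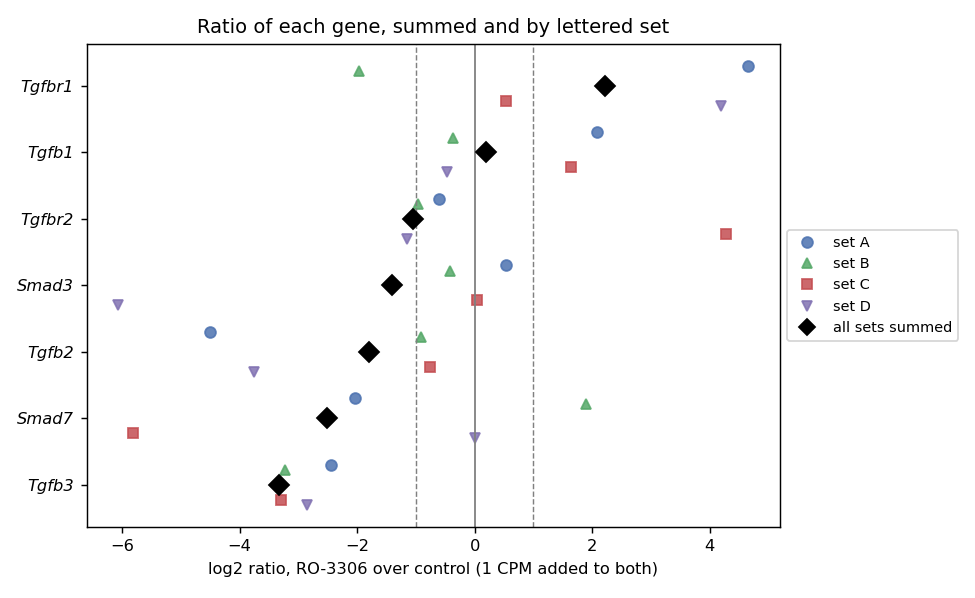
The log2 ratio of RO-3306 over control (horizontal axis, 1 CPM added to both) is plotted for the 7 genes, with black diamonds for all sets summed, coloured points for sets A to D, offset vertically for sight, and dashed lines at 2-fold. For Tgfb2 and Tgfb3 all 4 sets lie below 0, and for the other 5 genes the sets lie on both sides of 0 or at it.

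Tgfbr2, which encodes the ligand-binding type II receptor, was just past 2-fold lower and was not called. Per-cell levels ran from 0 to 242 CPM in control and from 0 to 153 CPM in RO-3306. The summed level was 53.5 CPM in control (51.7 to 55.3) and 25.4 CPM in RO-3306 (24.4 to 26.4), a log2 ratio of -1.05. Its share of cells with a count was 44.8% in control (13 of 29) and 54.1% in RO-3306 (20 of 37), or 48% and 52.9% at equal depth. Among cells with a count the median was 60.2 CPM in control and 19.4 in RO-3306. As for Tgfb2, the shares of cells lay close together and the level in those cells was lower. Sets A, B and D were lower, at -0.61, -0.97 and -1.15. Set C was higher, at 4.29, where none of the 6 control cells had a count. With TMM or DESeq2 factors the ratio was -0.84 or -0.82, under 2-fold. Tgfbr2 spans chromosome 9 from 115916763 to 116004431, minus strand.

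Tgfbr1, which encodes the type I receptor kinase, was the 1 gene that was higher by fold. It had a count in 3 of 29 control cells (10.3%), at 2.28, 7.19 and 16.4 CPM. In RO-3306, 8 of 37 cells had a count (21.6%), between 0.283 and 137 CPM. At equal depth the shares were 12% and 17.6%. The summed level was 1.94 CPM in control (1.62 to 2.30) and 12.6 CPM in RO-3306 (11.9 to 13.4), a log2 ratio of 2.21. Single cells set these sums: RO-3306 cell A5 held 58.3% of the counts of its group and control cell B4 held 82.8%. With these cells left out the ratio was 2.26, but the mean over the groups was then 2.97 CPM, under the minimum. Sets A, C and D were higher (4.66, 0.54 and 4.19) and set B was lower (log2 ratio -1.96). Without set A the ratio was 0.86 and without set B it was 3.51. The span of Tgfbr1 (chromosome 4, 47353222 to 47414926, plus strand) lies under that of Gm32435 for 52.3% of its length, so its level is also a low estimate.

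Both receptors are needed for a signalling complex, and their RNAs were seldom detected in the same cell. A count for both was found in 1 control cell of 29 and in 5 RO-3306 cells of 37, or 4% and 14.7% at equal depth (0.101% to 20.4% and 4.95% to 31.1%). These intervals overlap. Tgfb2 and Tgfbr2 were found together in 9 control and 14 RO-3306 cells, or 32% and 32.4% at equal depth. An absent count is no proof of absent RNA at this depth.

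Smad3, the receptor-activated SMAD that binds DNA, was lower in the sums but not in a way shared by the sets. Per-cell levels ran from 0 to 122 CPM in control and from 0 to 105 CPM in RO-3306. The summed level was 21.05 CPM in control (19.96 to 22.2) and 7.28 CPM in RO-3306 (6.74 to 7.85), a log2 ratio of -1.41. It had a count in 27.6% of control cells (8 of 29) and 18.9% in RO-3306 (7 of 37), or 32% and 11.8% at equal depth. The median of cells with a count was higher in RO-3306, at 59.1 CPM against 40.4 CPM. Set D alone was far lower, at -6.07, and sets A, B and C lay at 0.54, -0.42 and 0.05. Without set D the ratio was -0.60. With cells weighted equally it was -0.39. Smad3 spans chromosome 9 from 63554048 to 63665276, minus strand.

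Smad7, the inhibitory SMAD induced by the pathway, rested on few cells. Its 4 control cells with a count, of 29, were at 0.310, 52.1, 107 and 159 CPM. The 5 RO-3306 cells with a count, of 37, were at 0.682, 8.82, 16.96, 17.2 and 19.8 CPM. The shares of cells were 13.8% and 13.5%, and 12% and 11.8% at equal depth. The 3 high control cells lay above all RO-3306 cells. The summed level was 11.1 CPM in control (10.3 to 11.9) and 1.13 CPM in RO-3306 (0.925 to 1.37), a log2 ratio of -2.51. Sets A and C were lower (-2.03 and -5.81), set B was higher (1.89) and set D had no count in either group, so the gene was not called. Without set C the ratio was -1.17. Smad3 and Smad7 were found together in 1 control and 2 RO-3306 cells. Smad7 spans chromosome 18 from 75500436 to 75529006, plus strand.

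Plau and Tgfbi were close to undetected, and no log2 ratio is given for either. Plau (chromosome 14, 20886730 to 20893456, plus strand) had 1 count in 1 control cell, B6, and 0 counts in the 37 RO-3306 cells, which allows a share of cells with a count of up to 8.11% when a zero is read as 3 counts. Zeros alone are bounded in this way here, in place of the exact interval, which reaches 9.49%. Tgfbi (chromosome 13, 56757399 to 56787172, plus strand) had 0 counts in the 29 control cells. By the same reading this allows a share with a count of up to 10.3%, or 11.9% by the exact interval. In RO-3306 it had 139.5 counts, all in cell D9, at 33.2 CPM of that cell. That count was fractional, so some of its reads were also placed elsewhere. The summed Tgfbi level of 1.503 CPM was 33.1-fold higher than the 0.0454 CPM that 3 counts over all control cells would give. That value takes in no counting error of the RO-3306 sum and rests on 1 cell. The exact interval, with counting error of both sums, had a lower limit of 26.6-fold. Neither gene lies under another gene span.

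**Figure D3:**
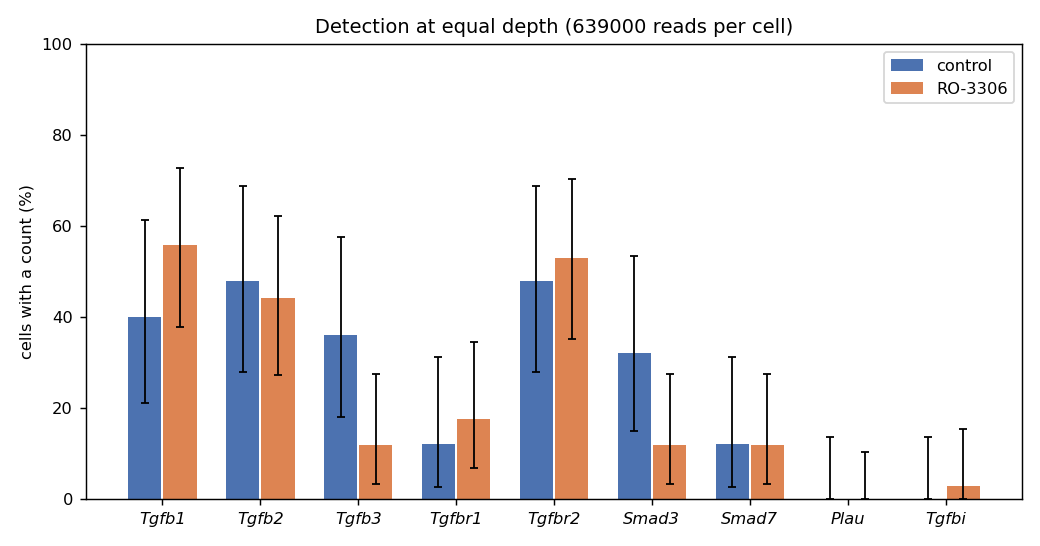
Bars give the percent of cells with a count for each of the 9 genes after thinning to 639000 reads per cell (25 control and 34 RO-3306 cells), with exact 95% binomial intervals. The intervals of the groups overlap for all 9 genes, and Plau has no count in either group after thinning.

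On the scale of CPM per kb of mRNA, the order of the genes differed between the groups. In control it ran from Tgfb2 (13.6) through Tgfb3 (7.25), Tgfbr2 (6.61), Smad3 (4.14), Smad7 (2.60) and Tgfb1 (2.36) to Tgfbr1 (0.337). Of these neighbours, only Smad7 and Tgfb1 had counting intervals that overlap. In RO-3306 it ran from Tgfb2 (3.78, or 2.42 without cell B11, below Tgfb1) through Tgfbr2 (3.14), Tgfb1 (2.76), Tgfbr1 (2.19) and Smad3 (1.43) to Tgfbi (0.5004), Tgfb3 (0.451) and Smad7 (0.264). Tgfbi and Tgfb3 had overlapping intervals there. With cells weighted equally, the control order was the same and the RO-3306 order changed. Smad3 (2.03) was then above Tgfbr1 (1.53), and Tgfb3 (1.14) and Smad7 (0.401) were above Tgfbi (0.299). Levels of Tgfb3 and Tgfbr1 are low estimates in both groups, as described above. The order of the genes also takes in any reads from introns, as described for the ligands. The spread between lettered sets was wider than these intervals, as the set levels of Tgfb2 and Tgfb3 show. In none of the genes did at least 50% of the cells of both groups have a count, so no genes with a like pattern over cells were named.

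Ratios over all genes varied with mRNA length. Genes were split into 10 groups of equal size by length, and the median log2 ratio ran from 0.25 in the group of shortest mRNAs to -0.86 in that of the longest. Most of the 7 genes have long mRNAs. With the median of its own length group subtracted, Tgfb3 was at -2.99, Smad7 at -2.06, Tgfb2 at -1.24, Smad3 at -0.85, Tgfbr2 at -0.19, Tgfb1 at 0.36 and Tgfbr1 at 3.0015. The ratio of Tgfbr2 was thus close to that of genes of like length. In the length groups of Tgfb2 and Tgfb3, 9.34% and 7.24% of genes were called lower.

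The genes that store and release latent TGF-beta had a median log2 ratio of -0.99 over the 12 of 18 with at least 5 CPM. Of these, 2 were called lower and 0 higher. Among all genes of at least 5 CPM, 6.43% were called lower and 7.23% higher, the shares to read beside this and the later lists. The list medians and calls were not corrected for mRNA length. Ltbp3, a latent TGF-beta binding protein, was at 75.6 CPM in control and 18.7 in RO-3306 (log2 ratio -1.96). Thbs1, thrombospondin-1, which can activate the latent complex, was at 570 and 40.7 CPM (-3.77), although its ratio in set A was only -0.09, smaller than the scaling shift. The small proteoglycans Dcn and Bgn, which bind TGF-beta, had log2 ratios of 0.07 and 0.15.

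Other receptors of the TGF-beta and BMP family had a median of -1.31 over 5 of 11 genes, with 2 called lower and 0 higher. Both called genes encode BMP receptors, Bmpr1a at 112 and 44.4 CPM (-1.31) and Bmpr2 at 74.5 and 14.5 CPM (-2.28). The co-receptor Tgfbr3 was at 98.0 and 37.1 CPM (-1.38) and was not called, since its sets differed in sign.

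Of the other SMADs and SMAD regulators, 19 of 21 had at least 5 CPM, with a median of -0.74. Called were 1 lower and 0 higher, beside 6.43% and 7.23% of all genes, so 1 call says little about the list. The called gene was Skil, which encodes the SMAD corepressor SnoN, at 34.5 CPM in control and 9.77 in RO-3306 (-1.72). Smad2 and Smad4, the partners of Smad3, had log2 ratios of -0.76 and -1.005 and differed in sign between sets.

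Genes known to be induced by TGF-beta had a median of -0.88 over 17 of 21 genes, with 5 called lower and 0 higher. Of the 17, 15 had a ratio below 0 and 2 above, Klf10 (0.95) and Snai2 (0.40), which were not called. Over all 9374 genes of at least 5 CPM, 5526 were below 0 and 3848 above. Bhlhe40, counted below 0 at -0.004, lies within the scaling shift, so its sign is not settled. The collagen gene Col1a1 was at 714 CPM in control and 127 in RO-3306 (-2.48). Lox, a collagen cross-linking enzyme, was at 648 and 160 CPM (-2.01). The matricellular gene Ccn1 was at 340 and 60.6 CPM (-2.47). The transcription factor genes Id3, at 875 and 419 CPM (-1.06), and Junb, at 233 and 106 CPM (-1.13), were also called lower. Col1a1 is also one of the mesenchymal markers that were lower in RO-3306. The genes of this list, Id3 among them, respond to other signals too, and whether TGF-beta induces them in this line was not tested. Cdkn2b and Timp1 were at 0 with their whole spans under other genes, so their zeros are no measure of expression. Tagln was also at 0, with 38.6% of its span under other genes.

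The other genes of fibrinolysis lay on both sides of 0. Of the 9 of 15 with at least 5 CPM, 4 had a ratio below 0 and 5 above, with a median of 0.08. Over all 9374 genes of at least 5 CPM, 5526 were below 0 and 3848 above. Plgrkt (0.08), S100a10 (0.08) and F3 (0.15) lay within the scaling shift, so their signs are not settled. Called were 0 lower and 1 higher, beside 6.43% and 7.23% of all genes, so 1 call says little about the list. Plaur, the cell-surface receptor of urokinase, was at 48.9 CPM in control and 149 in RO-3306 (log2 ratio 1.59). It had a count in 13 control cells of 29 and in 34 RO-3306 cells of 37. Urokinase itself was near undetected, as described for Plau. The substrate gene Plg was at 0 in all kept cells. Plat, tissue plasminogen activator, was named after its values were seen. It was at 47.1 and 8.33 CPM (-2.36) and was not called, since it was higher in sets C and D. Serpinb2, also named after its values were seen, was at 12.4 and 34.4 CPM (1.40). It was not called, since it was lower in set C.

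**Figure D4:**
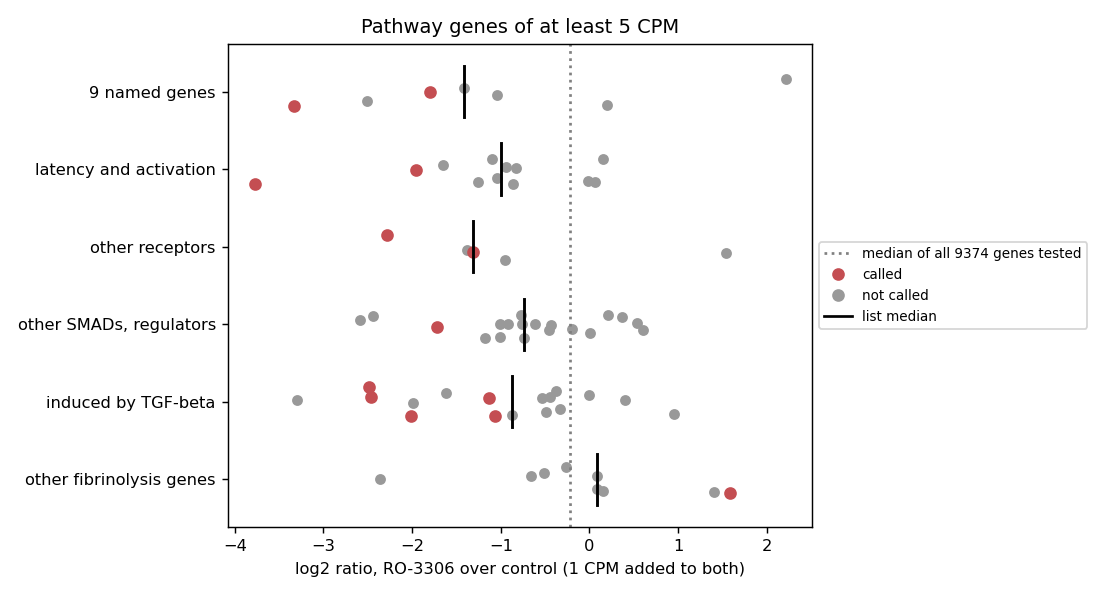
Each point is a gene of at least 5 CPM, placed by its log2 ratio of RO-3306 over control (1 CPM added to both), with 1 row for the 9 named genes and 1 for each related list, red for called genes and black lines at list medians. Medians run from -1.41 for the named genes to 0.08 for fibrinolysis, beside the dotted line at -0.22 for all 9374 genes.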

How the data were processed

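Each library had 1 deposited table of expected counts per gene, made by the authors with featureCounts 2.0.3 on a RefSeq annotation of GRCm39, per the file headers. Reads were counted over whole gene spans, reads placed at several sites were split into fractions, and no strand or overlap option was set, per the file headers. STAR and FastQC are named in the submitters' processing notes. Trimming and read filters are not given in the sources used here. No molecular identifiers were used, and PCR copies were counted as reads.

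Counts were summed over kept cells and scaled to CPM. Poisson and Clopper-Pearson intervals were exact, at the 95% level, after rounding fractional counts to whole numbers. Gene-level steps were tested on simulated data. All 9 genes were described, and from each list the called genes were named, with others added where stated. The list genes Dcn, Bgn, Tgfbr3, Smad2, Smad4, Klf10, Snai2, Bhlhe40, Plgrkt, S100a10, F3 and those at 0 were named without a call. These were chosen after their values were seen. The genes and lists were chosen with earlier results of these data known. mRNA lengths came from the longest GENCODE transcript by symbol, with a match for 97.2% of genes tested. No 2 kept libraries held identical values. Alternatives covered the pseudocount, TMM (edgeR 4.0.16) and DESeq2 1.42.0 factors, cell weighting, thinning, cell filters, the mean filter, and leaving out sets or the highest cell. Python 3.11.15, numpy 2.4.6, pandas 2.3.3, scipy 1.17.1, matplotlib 3.10.9 and R 4.3.3 were used.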

Additional observations from a re-analysis of the deposited data

Results flagged for a closer look

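Tgfbi had a signal in the libraries left out for few counts or genes, although no kept control cell had a count. The 19 left-out control libraries held 11.7 CPM of Tgfbi together (3.19 to 30.02), from 4 counts, all in library C5. That library had 16570 counts and 220 genes in all, so 4 counts were 241 CPM of it (65.8 to 618). The 11 left-out RO-3306 libraries held 0 Tgfbi counts. That allows up to 2.58 CPM when a zero is read as 3 counts, or 3.17 CPM by the exact interval. Each of the other 8 genes had 0 or 1 count in the left-out libraries of a group.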

How the results depend on the processing

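Tgfb2 and Tgfb3 were called lower under each of the 15 alternatives that recomputed their ratios. Tgfb2 ranged from -2.25 to -1.24 and Tgfb3 from -3.92 to -2.18. Tgfb1 ranged from -0.31 without set A to 0.83 without set B. Leaving out 1 lettered set at a time gave 0 to 1 genes called higher (1 without set B, Tgfbr1) and 2 to 3 called lower (Tgfbr2 joined without set C). The median log2 ratio of the genes tested, -1.41, was -2.03 without set B to -0.93 without set D. It was -1.09 with a pseudocount of 5 CPM, -1.22 with TMM factors, -1.20 with DESeq2 size factors, -1.09 with cells weighted equally, -1.15 after thinning and -1.05 without the mean filter. Subtracting the median of the own length group, chosen after seeing the data, gave -0.85. Of 223 recomputed values over 32 results, 153 were labelled as unmoved, 70 as moved and 0 reversed a called value. The 153 include all 15 recomputed ratios each of Plau and Tgfbi, genes for which no log2 ratio is given. Those labels therefore say nothing about stability. The 153 also include the 3 genes called lower without set C, against 2 in the main setting. The 153 thus overstate how many results were stable. No paired analysis was possible because no test was made and the title numbers are not stated to pair cells. At this depth a gene with no count in any cell was not detected, which does not show that its RNA was absent.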
